A study of Mus musculus with 6 samples.

Results

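Regorafenib is an oral inhibitor of several receptor and cytoplasmic kinases, among them the CSF-1 receptor, VEGF receptors, PDGF receptors, KIT, TIE2 and the RAF kinases. The data described here are the transcriptomes of unpolarized (M0) mouse bone marrow-derived macrophages (BMDMs) cultured with or without it. They are 2 of the 6 RNA-seq libraries of the study: 1 library of M0 control macrophages and 1 library of M0 macrophages treated with regorafenib. The other 4 libraries are the same pair, control and regorafenib, in M1 macrophages and in M2 macrophages, and they are used only to show where M0 macrophages differed. Genes were described when at least 10 counts fell on them in 1 of the 2 M0 libraries, which held for 13964 of the 54446 gene identifiers in the count table.

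The BMDMs were grown from the bone marrow of male BALB/c mice aged 6 to 8 weeks, for 7 days in medium with 10% serum and 20% L929-conditioned medium. All 6 groups share this origin and culture, with CSF-1, which L929 cells secrete, as the growth factor on which such cultures depend. Control cells received DMSO, the solvent, and treated cells received regorafenib, which the methods give as 1 µM added 1 h before polarization. M1 macrophages were then exposed for 24 h to LPS at 50 ng/mL together with IFN-γ at 20 ng/mL, whereas M2 macrophages received IL4 at 20 ng/mL for the same time. How long the M0 macrophages were with the drug is not stated in the sources used here. Each group is 1 library, so no difference below has a replicate check, and every interval given is a 95% counting interval that covers counting error only, not the spread between cultures or mice. Nor can fewer cells of a kind be told apart from less RNA per cell in libraries made from whole cultures.

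Macrophages are phagocytes that take up and digest particles, dying cells and lipoproteins in lysosomes, present antigen and release chemokines that recruit other leukocytes. CSF-1, through its receptor and the ERK and PI3K/AKT pathways, keeps bone marrow-derived macrophages alive, drives their division and raises their glycolysis and protein synthesis. Where PI3K/AKT signalling is low, FOXO transcription factors enter the nucleus and raise genes of cell cycle arrest and autophagy.

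The 2 M0 libraries held 27586063 counts (control) and 29335774 counts (regorafenib), within the range of 25359309 to 34898342 counts of all 6. The 10 genes with the most counts took 9.85% of the control library and 13.8% of the regorafenib library, and mitochondrially encoded genes took 1.15% and 1.43%. All 12 macrophage markers were measured in both libraries, and their summed level was 34749 CPM (counts scaled to 1000000 per library after TMM) in control and 52682 CPM in regorafenib. That sum rested on Lyz2 (25969 and 42740 CPM), and the list had a median log2 ratio of 0.10 with 1 gene higher, 2 lower and 9 not called by the 2-fold rule given below, by which 8.27% of all tested genes were higher and 10.2% lower. Of markers of other cells, 9 of 12 T, NK and B cell genes and 8 of 10 erythroid and mast cell genes were at 0 in both libraries, with summed levels of 0.358 to 0.819 and 0.326 to 0.576 CPM. Of 12 neutrophil markers 4 reached 10 counts, summing to 117 CPM in control and 272 CPM in regorafenib, while Ly6g, Ngp and Retnlg were at 0 in both. The higher sum rested on Mpo, Mmp8 and Csf3r, while the fourth, S100a8, had a log2 ratio of -0.54. Of these 4 only Csf3r was higher by the 2-fold rule. The 11 dendritic cell markers summed to 116 and 58.7 CPM, nearly all from the interferon-responsive gene Bst2, with Xcr1 and Siglech at 0. The 11 fibroblast and endothelial markers summed to 48.6 and 40.3 CPM. Of the 7 that reached 10 counts Col1a1 and Col1a2 were higher and Kdr and Cdh5 lower, with a median of 0.75, and Kdr alone was at 37.2 and 17.8 CPM. The part of these other cells in the results below was not tested.

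Regorafenib was accompanied by a broad and two-sided difference in M0 macrophages. Lower were 34 of 35 G1/S and DNA replication genes, all 35 G2/M genes, 28 of 37 interferon-stimulated genes and 6 of 9 CC chemokines. Higher were 6 of 9 MHC class II genes and 9 of 16 FOXO targets. These lists were written with earlier results of these data known. All 8 tubulins were lower too, in a list of 22 tubulin and proteasome genes drawn up after values had been seen. Ratios are log2 of regorafenib over control after TMM scaling, and a gene was taken as higher or lower when it differed at least 2-fold (log2 ratio of 1 or -1) with a 95% counting interval off 0. Pairs of counts below give the control library first and the regorafenib library second, and a log2 ratio is followed by the bounds of its 95% counting interval. By the 2-fold rule 1155 genes were higher (8.27% of the 13964 genes) and 1423 were lower (10.2%). The median ratio of all 13964 genes was 0.005, with quartiles of -0.453 and 0.433. At 4-fold or more 313 genes were higher and 418 lower, and at 8-fold or more 97 and 101. Depth shaped which genes could be called, since 273 genes differed 2-fold but had an interval that held 0. Among genes with fewer than 100 counts in both libraries 16.9% were higher and 13.8% lower, against 6.34% and 11.6% of the 473 genes with at least 10000 counts.

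**Figure D1:**
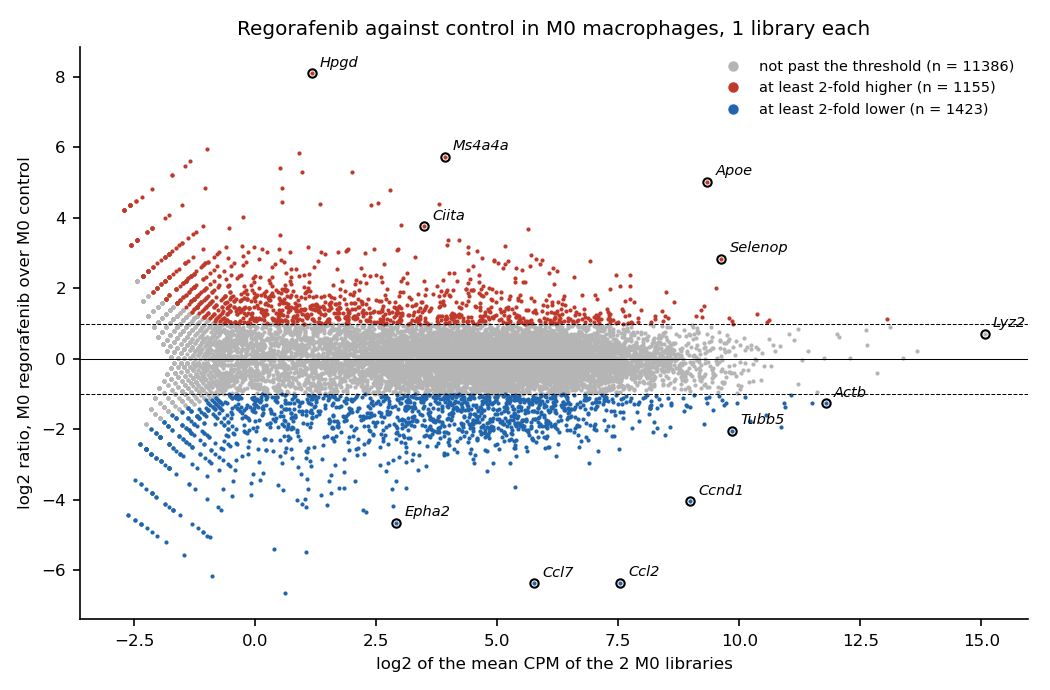
Log2 ratio of M0 regorafenib over M0 control (vertical axis) against the log2 of the mean CPM of the 2 M0 libraries (horizontal axis), 1 point per gene for 13964 genes. Coloured points are the 1155 genes higher and 1423 genes lower by the 2-fold rule, and the points lie around 0 at every level, with a median of 0.005.

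Counting only genes whose higher library held 100 counts or more, those higher with regorafenib began with Hpgd, which encodes the enzyme that inactivates prostaglandins: 0 counts in control and 148 in regorafenib, at least 46.0-fold higher against a floor of 3 counts per library. They went on with Fn3k, a kinase that removes sugar from glycated proteins, with 2 and 122 counts and a log2 ratio of 5.83, 3.94 to 8.89. Ms4a4a and Adgre4, membrane proteins of myeloid cells, had 17 and 974 and 6 and 256 counts. Dmd, which encodes dystrophin, had 3 and 126 counts (log2 ratio 5.29, 3.71 to 7.59), where the 3 counts of control leave a wide interval. Its bound against the floor was 39.1-fold. Nat8l, Hp (haptoglobin), Sult1a1 (a sulfotransferase), Tmem176b, Lrrc14b, Tcp11l2 and Mturn were between 3.38 and 4.78 in log2 ratio, and Ciita and Apoe are described with their groups.

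In the lower direction the largest ratios belonged to Ccl7 and Ccl2 (below). Ctnnd2, a catenin, went from 125 to 3 counts (log2 ratio -5.48, -7.78 to -3.90), at least 44.7-fold lower against the floor of 3 counts. Epha2, an ephrin receptor and itself among the kinases that regorafenib binds, went from 442 to 19 counts (-4.64, -5.39 to -3.98). The others of the 15 lowest were F2rl2 (a protease-activated receptor), Cd300e (an activating myeloid receptor), Fosl1 (an AP-1 subunit), Zbtb32, Ambp, Gprc5a, Ccnd1, Ptgs2os2, Tmem163, Cadps and Ehd2. In absolute level the largest gains were in Lyz2, the lysozyme gene, with 25969 CPM in control and 42740 CPM in regorafenib, and in Psap, the precursor of the saposins that help lysosomal lipid breakdown, with 5266 and 11619 CPM. Gpnmb, Ctsd, Ctsb, Ctss, Mpeg1, mt-Co1, Csf1r and Apoe made up the rest of the 10. The largest losses were in Actb (cytoskeletal actin, 4981 and 2082 CPM) and Pkm (pyruvate kinase, 4072 and 1710 CPM), followed by Lpl, Ftl1, Vim, Flna, Spp1, Adam8, Lrp1 and Msr1. Ctsd, mt-Co1 and Ftl1 share 30.2%, 30.8% and 34.4% of their 100-base words with other genes, which makes their counts less certain.

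**Figure D2:**
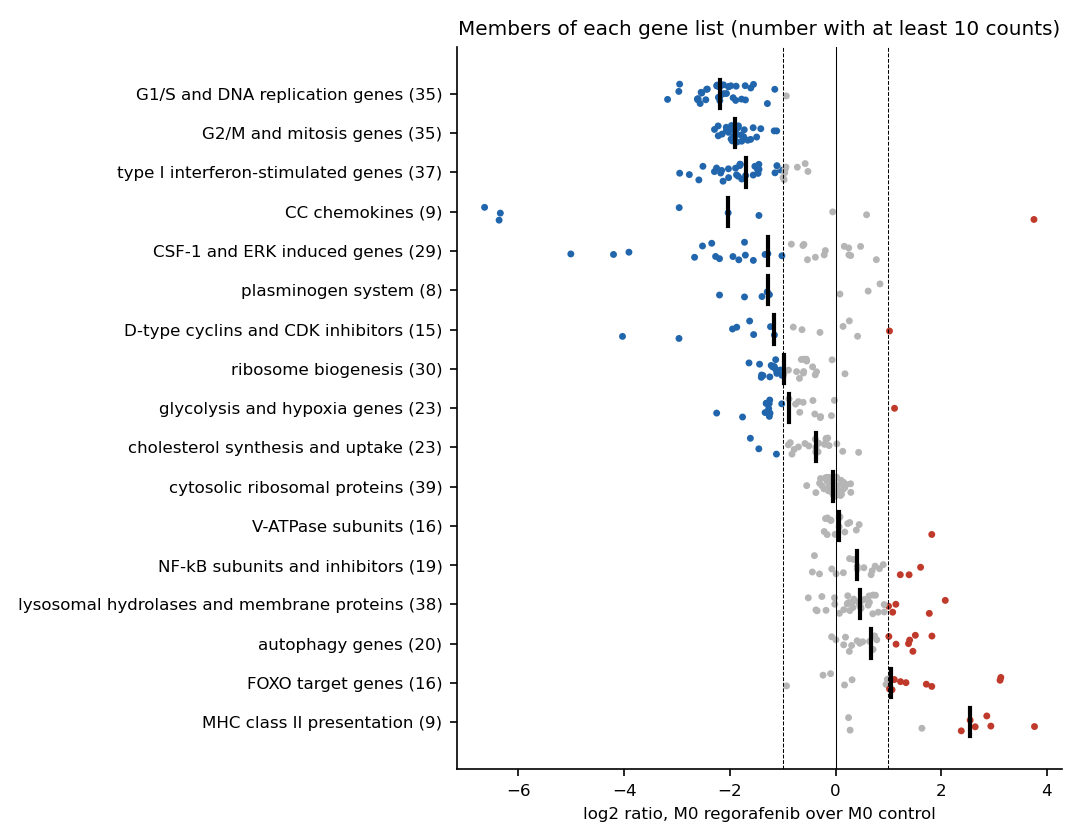
Log2 ratio of M0 regorafenib over M0 control (horizontal axis) for the members of 17 gene lists, 1 point per gene, with the number of members that reached 10 counts in parentheses. Blue and red mark genes lower and higher by the 2-fold rule, grey the rest, black bars the list medians and dashed lines a 2-fold difference. The medians run from -2.19 for G1/S and DNA replication genes to 2.55 for MHC class II genes.

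Many genes that CSF-1 and ERK signalling induce were lower, while the receptor gene Csf1r was not. Which signal upstream of these genes differed was not tested. The study reported that a published set of CSF-1 response genes did not change significantly in BMDMs, and that set was not compared here. Of 29 genes induced by CSF-1 and ERK signalling 16 were lower and none higher, and their median ratio was -1.28 against 0.005 over all genes. They included the ETS factors that ERK activity maintains: Etv4 had 14 and 1 counts (log2 ratio -3.91, -9.31 to -1.19) and Etv5 had 1994 and 444 counts (-2.27, -2.42 to -2.12). They also included the feedback inhibitors of the pathway, Spry4 with 30 and 1 counts (-5.01, -10.36 to -2.42), Spred2 with 1643 and 496 counts (-1.83, -1.98 to -1.68), and the ERK phosphatases Dusp4 (3571 and 998 counts, -1.94, -2.04 to -1.84) and Dusp6 (1913 and 815 counts, -1.33, -1.45 to -1.21). Myc, the growth transcription factor, had 1142 and 193 counts (-2.67, -2.89 to -2.44), and Ets2 had 5416 and 1146 counts (-2.34, -2.44 to -2.25). The early response genes were not of one kind. Fos was lower (2268 and 746 counts, -1.71, -1.83 to -1.59), whereas Egr1 had 29 and 38 counts, Junb 2137 and 2573 and Egr2 263 and 392, none of which passed the rule. Of 16 AP-1 and ATF factors, Fosl1 (120 and 7 counts, -4.20, -5.55 to -3.11) and Fos were the 2 that were lower, and none was higher. Since 10.2% of all tested genes were lower, these 2 are not read as a shift of the group.

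Csf1r itself had 52356 and 101392 counts, a log2 ratio of 0.85, 0.84 to 0.87 that stayed under 2-fold. The receptors for the other colony-stimulating factors were higher in 3 of the 6 measured genes of that group: Csf3r, the G-CSF receptor, with 213 and 2120 counts (3.21, 3.01 to 3.42), Csf2rb, the common beta chain, with 5729 and 14178 counts (1.21, 1.16 to 1.25), and Csf2rb2, its close relative, with 3944 and 8485 counts (1.0, 0.95 to 1.06). The GM-CSF receptor alpha chain Csf2ra had 7775 and 8235 counts (-0.02, -0.06 to 0.03). Of 14 measured genes for kinases that regorafenib binds 4 were lower and none higher. Beside Epha2 these were the VEGF receptor genes Flt1 (478 and 234 counts, -1.13, -1.36 to -0.90) and Kdr (1144 and 588 counts, -1.06, -1.21 to -0.92) and the p38 beta kinase gene Mapk11 (228 and 102 counts, -1.26, -1.61 to -0.92). Braf, with 761 and 1041 counts, did not pass the rule. Of 16 genes of the p38 MAPK and CREB pathway, Mapk11 and the CREB target Nr4a1 (134 and 65 counts, -1.15, -1.60 to -0.71) were lower and Mapkapk3 (712 and 1902 counts, 1.32, 1.19 to 1.44) was higher. Of 10 KLF factors Klf9 was higher (308 and 804 counts, 1.28, 1.09 to 1.48). Klf4, with 1677 and 1074 counts and a log2 ratio of -0.74, -0.86 to -0.63, did not pass the rule. Beside 8.27% higher and 10.2% lower of all tested genes, the few calls in the p38 and CREB and the KLF lists are not read as a response of either.

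Genes of chemokines that recruit monocytes had the lowest ratios of the secreted factors named here. Of 9 measured CC chemokines 6 were lower and 1 higher, with a median of -2.03. Ccl2 had 11274 and 149 counts (-6.34, -6.59 to -6.11), Ccl7 had 3304 and 43 counts (-6.37, -6.83 to -5.93) and Ccl12 had 93 and 1 counts (-6.64, -11.96 to -4.13). These 3 are ligands of CCR2, and their genes are neighbours on chromosome 11. Ccl3 and Ccl4, macrophage inflammatory proteins, had 2769 and 727 counts (-2.03, -2.15 to -1.91) and 1644 and 227 counts (-2.96, -3.17 to -2.76), and Ccl9, the most abundant of the group by counts, had 31779 and 12495 counts (-1.45, -1.48 to -1.42). Ccl6 did not move by the rule, with 1714 and 1773 counts (-0.05, -0.15 to 0.04), and Ccl24, an eotaxin, was higher at low counts (2 and 29, 3.76, 1.77 to 6.87).

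Of 9 CXC chemokines 4 were lower. Cxcl10, an interferon-induced ligand of CXCR3, had 467 and 66 counts (-2.92, -3.32 to -2.55), Pf4 had 385 and 85 counts (-2.28, -2.64 to -1.94) and the neutrophil attractant Cxcl2 had 383 and 125 counts (-1.72, -2.02 to -1.42). The fourth was Cxcl11, with 15 and 0 counts, at least 5.37-fold lower against the floor. Cxcl12 was higher at low counts (2 and 17, 2.99, 0.91 to 6.14). The receptors divided evenly: of 16 chemoattractant receptors 4 were lower and 4 higher. The lower ones included Ccr1 (1472 and 536 counts, -1.56, -1.71 to -1.42), Ccr3 and the complement receptor C5ar1 (4666 and 1939 counts, -1.37, -1.45 to -1.29). Cxcr4, the CXCL12 receptor, had 4690 and 18703 counts (1.89, 1.85 to 1.94), and Ccr2, the receptor for Ccl2, had 325 and 757 counts (1.12, 0.93 to 1.31).

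Of 18 cytokines 7 were lower and 2 higher. The lower group held both pro- and anti-inflammatory genes: Tnf with 2029 and 623 counts (-1.80, -1.94 to -1.68), the IL-1 receptor antagonist Il1rn with 1227 and 183 counts (-2.85, -3.08 to -2.62), Il10 with 24 and 4 counts (-2.69, -4.67 to -1.15), and Tnfsf9, Gdf15, Spp1 and Lif. Spp1, osteopontin, had 84530 and 37846 counts (-1.26, -1.28 to -1.24), one of the 10 largest losses in CPM. Il16 (154 and 890 counts, 2.43, 2.18 to 2.69) and the B cell survival factor Tnfsf13b (120 and 266 counts, 1.05, 0.73 to 1.37) were higher. Il1b, with 95 and 98 counts, and Il6, with 5 and 12, did not pass the rule. Cytokine receptors showed the other direction only, with 6 of 18 higher and none lower: Tnfrsf1b, TNF receptor 2, had 9839 and 29975 counts (1.5, 1.47 to 1.54), Il10ra had 2595 and 7366 counts (1.40, 1.34 to 1.47), Il4ra had 941 and 2123 counts (1.07, 0.96 to 1.18), and Ifngr1, Tgfbr1 and Il1r1 made up the rest. Of 12 angiogenic and growth factor genes Vegfc (140 and 33 counts, -2.19, -2.78 to -1.63) and Pgf were lower, and Hgf (220 and 828 counts, 1.81, 1.59 to 2.03), Pdgfc (227 and 1179 counts, 2.27, 2.07 to 2.49), Vegfa (134 and 312 counts, 1.12, 0.82 to 1.42) and Thbs1, an inhibitor of angiogenesis, were higher.

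Genes of cell division were lower as a block, from the D-type cyclins that open the cycle to the motors of mitosis. Of 15 D-type cyclin and CDK inhibitor genes 8 were lower and 1 higher. Ccnd1, the cyclin that growth factors induce, had 29262 and 1921 counts (-4.03, -4.10 to -3.96), Ccnd2 had 363 and 50 counts (-2.96, -3.42 to -2.53) and Cdk6, their kinase partner, had 5357 and 1965 counts (-1.55, -1.62 to -1.47). The CDK inhibitors did not move together. Cdkn1a (p21) had 15347 and 4265 counts (-1.95, -2.0 to -1.90) and Cdkn2c (p18) 2158 and 987 counts (-1.23, -1.34 to -1.12), both lower, whereas Cdkn1b (p27), a FOXO target, was higher with 1002 and 2184 counts (1.02, 0.91 to 1.13).

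Of 35 genes of the G1/S transition and DNA replication 34 were lower and none higher, with a median of -2.19, and all 35 of the G2/M and mitosis genes were lower, with a median of -1.91. The exception was Rfc3, a clamp loader subunit, with 936 and 527 counts (-0.93, -1.09 to -0.78). Cdc6, which loads the replicative helicase, was the lowest of the first group (1527 and 181 counts, -3.18, -3.41 to -2.96). Mcm5, a subunit of that helicase, had 7119 and 1260 counts (-2.60, -2.69 to -2.51), the cyclin Ccne2 2096 and 288 counts (-2.96, -3.15 to -2.79), and Rrm2, which makes deoxynucleotides, 9616 and 1771 counts (-2.54, -2.62 to -2.47). The least changed of those past the rule were E2f1 (-1.29, -1.39 to -1.19) and Slbp (-1.15, -1.25 to -1.04). Among mitosis genes the proliferation marker Mki67 had 18430 and 5181 counts (-1.93, -1.98 to -1.89), Top2a, the topoisomerase that untangles sister chromosomes, 14792 and 3788 counts (-2.07, -2.12 to -2.02), and the mitotic kinase Cdk1 3640 and 1141 counts (-1.77, -1.87 to -1.68). Their range was narrow, from -2.29 for Ube2c to -1.11 for Cks2, which shares 23.8% of its 100-base words (every stretch of 100 bases of its transcripts, the read length) with those of other genes, so that its reads are less certain. The summed level of the G1/S list was 3830 CPM in M0 control and 902 CPM in M0 regorafenib, and that of the G2/M list was 3965 and 1068 CPM.

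Tubulin genes were lower as well. In a list of 22 tubulin and proteasome genes, drawn up after values had been seen, all 8 tubulins were lower and none of the 14 proteasome subunits was called. Tubb5, a main beta-tubulin, had 45383 and 11902 counts (-2.03, -2.06 to -2.0), Tubb6 had 5083 and 1228 counts (-2.15, -2.24 to -2.06) and Tuba1b had 17734 and 4253 counts (-2.16, -2.21 to -2.11). Tuba1b and Tuba1a share 62.1% and 65.1% of their 100-base words with other genes, so their reads could be divided between copies. Proteasome ratios ran from -0.84 for Psmd14 to -0.20 for Psmd1.

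Cell cycle and interferon-stimulated genes are commonly controlled through short promoter motifs. The CHR motif (TTTGAA) binds the DREAM and MuvB complexes at G2/M genes, E2F sites (here TTGGCGC) bind E2F factors at G1/S genes, CCAAT boxes bind NF-Y, and the interferon-stimulated response element (ISRE, searched as its core of a repeated GAAA with any 2 letters between) binds STAT and IRF factors. Each was searched on both strands. Below are the 120 bases before the start of the 2 genes of each of 4 lists with the most counts among those that hold the list's leading motif there. They are from RefSeq, build GRCm38.p6, each 5′ to 3′ on the gene's own strand, with every match of these 4 motifs in capitals. They are Mki67 (chr7:135716380-135716499, minus strand) and Top2a (chr11:99024190-99024309, minus strand) for G2/M, Mcm6 (chr1:128359706-128359825, minus strand) and E2f8 (chr7:48881597-48881716, minus strand) for G1/S, Oas3 (chr5:120777660-120777779, minus strand) and Trim30a (chr7:104465194-104465313, minus strand) for interferon-stimulated genes, and H2-Aa (chr17:34287824-34287943, minus strand) and H2-Eb1 (chr17:34305747-34305866, plus strand) for MHC class II. A match on the opposite strand appears as its reverse complement, and in E2f8 the E2F and CCAAT matches overlap.
Mki67: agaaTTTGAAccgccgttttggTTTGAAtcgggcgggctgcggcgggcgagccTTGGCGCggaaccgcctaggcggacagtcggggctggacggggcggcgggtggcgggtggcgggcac
Top2a: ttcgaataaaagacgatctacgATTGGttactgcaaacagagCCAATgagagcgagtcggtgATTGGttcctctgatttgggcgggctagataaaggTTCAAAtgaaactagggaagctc
Mcm6: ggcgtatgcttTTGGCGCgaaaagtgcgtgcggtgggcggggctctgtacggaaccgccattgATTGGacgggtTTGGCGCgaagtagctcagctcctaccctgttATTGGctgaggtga
E2f8: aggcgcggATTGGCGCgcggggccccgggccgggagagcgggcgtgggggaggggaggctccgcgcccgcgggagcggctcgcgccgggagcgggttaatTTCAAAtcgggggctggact
Oas3: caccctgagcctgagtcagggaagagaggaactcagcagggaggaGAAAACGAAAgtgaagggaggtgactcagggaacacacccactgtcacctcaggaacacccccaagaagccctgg
Trim30a: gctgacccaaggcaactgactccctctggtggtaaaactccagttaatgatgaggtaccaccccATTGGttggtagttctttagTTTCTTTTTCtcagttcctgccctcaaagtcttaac
H2-Aa: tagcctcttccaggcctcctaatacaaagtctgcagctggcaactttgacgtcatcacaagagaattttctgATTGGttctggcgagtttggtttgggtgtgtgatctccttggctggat
H2-Eb1: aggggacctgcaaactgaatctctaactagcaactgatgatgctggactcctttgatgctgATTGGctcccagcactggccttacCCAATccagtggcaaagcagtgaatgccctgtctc

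Motif shares were counted from 250 bases before to 50 bases after the start, a wider window than the 120 bases shown. RefSeq promoters were at hand for 29 of the G2/M genes, and 20 of them (69.0%) held a CHR motif. The share was 12% of all 9948 tested genes with a promoter and 16.8% of all promoters of matched genes. In the 120 bases alone 8 of the G2/M genes searched there held it. The E2F motif stood in 9 of 29 G1/S promoters (31.0%, against 4.53% of the tested genes and 3.01% of all). In the 120 bases alone 3 of the G1/S genes searched there held it. CCAAT boxes stood in 21 of 29 promoters of each of these 2 lists (72.4%, against 39.1% and 38.2%). Over every gene lower by the 2-fold rule, 21.2% of promoters held the CHR motif and 7.11% the E2F motif. Among genes higher by the rule the shares were 11.7% and 2.06%. These are counts of letters in that window, with no test.

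Of 20 p53 target genes 7 were lower and 6 higher. The lower genes included Cdkn1a, the p53 antagonist Mdm2 (10408 and 4831 counts, -1.21, -1.26 to -1.16), the kinase Plk2 (3518 and 1042 counts, -1.86, -1.96 to -1.76) and the death receptor Tnfrsf10b. The higher ones included Sesn1 (1790 and 4508 counts, 1.23, 1.15 to 1.31) and Btg2 (593 and 1744 counts, 1.45, 1.32 to 1.59), an antiproliferative gene. Survival genes of the Bcl-2 family were split by member: of 15, 5 were lower and 2 higher. The survival genes Bcl2 (791 and 196 counts, -2.12, -2.35 to -1.89) and Bcl2l1 (5783 and 2853 counts, -1.12, -1.19 to -1.06) were lower, as were the death-promoting Bid, Bik and Pmaip1. Of the same death-promoting kind, Bmf (129 and 1249 counts, 3.17, 2.91 to 3.45) and Bbc3 (308 and 673 counts, 1.03, 0.83 to 1.23) were higher. Mcl1, the most abundant survival gene of the list by counts, had 19716 and 29975 counts (0.50, 0.48 to 0.53), and Bax 2324 and 2170 counts (-0.20, -0.29 to -0.12).

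Of 23 genes of glycolysis and the hypoxia response 11 were lower and 1 higher, with a median of -0.88, and their summed level was 12687 CPM in control and 6219 CPM in regorafenib. The lower genes ran through the pathway, from the glucose transporter Slc2a1 (3194 and 1381 counts, -1.31, -1.40 to -1.22) to Tpi1 (16559 and 7447 counts, -1.25, -1.29 to -1.22), Gapdh (42595 and 19286 counts, -1.25, -1.27 to -1.22), Pkm (125094 and 56372 counts, -1.25, -1.27 to -1.24), Ldha, which makes lactate (36149 and 15659 counts, -1.31, -1.34 to -1.28), and Slc16a3, which exports it (3145 and 997 counts, -1.76, -1.86 to -1.66). Pgk1, Pgam1, Gapdh and Eno1 share 51.7%, 33.9%, 20.9% and 20.4% of their 100-base words with other genes. The hexokinase genes were not called: Hk2 had 1841 and 1873 counts (-0.08, -0.17 to 0.02) and Hk1 6218 and 4962 (-0.43, -0.48 to -0.37). Vegfa, a hypoxia target, was the 1 gene of the list that was higher.

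Few mitochondrial genes were called. Of 32 nuclear genes of the respiratory chain and ATP synthase only Cycs, cytochrome c, was called, and lower (2172 and 799 counts, -1.54, -1.66 to -1.43), and the list's median was -0.26. None of the 8 measured mitochondrially encoded genes was called. In the TCA cycle Idh3a was lower (2199 and 836 counts, -1.5, -1.61 to -1.38) and Idh1, the cytosolic NADP-dependent isocitrate dehydrogenase, was higher (5843 and 16034 counts, 1.35, 1.31 to 1.40), with 18 of 20 genes not called.

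Of 30 ribosome biogenesis genes 14 were lower and none higher, with a median of -0.98. The snoRNP proteins Nop58 (1890 and 652 counts, -1.64, -1.77 to -1.51), Nop56 (2563 and 1043 counts, -1.40, -1.5 to -1.29), Fbl and Dkc1 and the RNA polymerase I subunit Polr1a (2101 and 1029 counts, -1.13, -1.24 to -1.02) were among them. The 39 cytosolic ribosomal protein genes, in contrast, all stayed under 2-fold, from -0.55 for Rps2 to 0.29 for Rps9, with a median of -0.04. Of 20 tRNA synthetase genes only Yars was called lower (1475 and 790 counts, -1.0, -1.13 to -0.88), but 18 of 20 had ratios below 0 and the median was -0.55. Of 19 ATF4 target and serine synthesis genes 4 were lower: the serine enzyme Psat1 (2139 and 401 counts, -2.52, -2.67 to -2.36), the mitochondrial one-carbon enzymes Mthfd2 (2364 and 632 counts, -2.0, -2.13 to -1.88) and Shmt2 (2436 and 1211 counts, -1.11, -1.21 to -1.01), and the amino acid transporter Slc7a5 (911 and 165 counts, -2.57, -2.81 to -2.33). Vldlr was higher. The stress genes Trib3 and Ddit3, with log2 ratios of -0.28 and 0.29, were not called.

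Genes of polyamine synthesis were lower at each step from ornithine. Odc1, the rate-limiting enzyme, had 1213 and 400 counts (-1.70, -1.87 to -1.54), Srm had 1069 and 347 counts (-1.73, -1.90 to -1.55) and Sms had 2910 and 1547 counts (-1.01, -1.10 to -0.92), and the arginine transporter Slc7a1 had 2286 and 651 counts (-1.91, -2.04 to -1.79). With Ass1 these were the 5 lower genes of 12 measured for arginine metabolism.

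Of 22 genes of the unfolded protein response and heat shock 5 were lower and none higher. They were the chaperones Hsp90aa1 (11577 and 3699 counts, -1.75, -1.80 to -1.69), Hspa1a, Hspa1b and Hspd1 (6075 and 3164 counts, -1.04, -1.10 to -0.98) and the secreted factor Manf. Hspa1a, Hspa1b and Hsp90aa1 share 48.6%, 49.9% and 38% of their 100-base words with other genes. Of 23 cholesterol genes 3 were lower, a share close to the 10.2% of all tested genes: Sqle, squalene epoxidase (3634 and 1277 counts, -1.61, -1.70 to -1.52), Hsd17b7 and Idi1. Of 14 fatty acid synthesis genes 4 were lower, the desaturases Fads2 (934 and 281 counts, -1.83, -2.03 to -1.64), Scd1 and Scd2 (3096 and 1272 counts, -1.39, -1.48 to -1.29) and the elongase Elovl6. No gene of either list was higher.

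Interferon-stimulated genes, which BMDMs express at a tonic level without added interferon, were mostly lower. Of 37 measured, 28 were lower and none higher, with a median of -1.70 and a summed level of 3975 CPM in control and 1532 CPM in regorafenib. Isg15, a ubiquitin-like modifier, had 1245 and 173 counts (-2.95, -3.19 to -2.72), Rsad2 (viperin) 2231 and 352 counts (-2.77, -2.93 to -2.60), Ifit1 1413 and 373 counts (-2.02, -2.19 to -1.86) and Mx1 315 and 71 counts (-2.25, -2.64 to -1.88), all antiviral effectors. Irf7, the factor that amplifies the response, had 6147 and 1778 counts (-1.89, -1.97 to -1.81). The members under 2-fold were Bst2, Ddx60, Stat2, Herc6, Ddx58, Trim30a, Ifih1 and Irf9, all between -0.99 and -0.52. Ifi205 was not called because its counts of 16 and 8 left an interval that held 0 (-1.10, -2.53 to 0.21). Oas1a and Ifit3 share 40.9% and 31.7% of their words with other genes. From 250 bases before to 50 bases after the start, an ISRE stood in 16 of their 27 promoters (59.3%). The share was 3.19% of all tested genes and 3.39% of all promoters. In the 120 bases before the start, as shown for Oas3 and Trim30a, 8 of the genes searched there held one. The interferon receptor genes did not pass the rule: Ifnar1 had 5008 and 4762 counts (-0.17, -0.23 to -0.12) and Ifnar2 2555 and 4308 (0.65, 0.58 to 0.72).

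Of 23 Toll-like receptor and nucleic acid sensor genes 3 were lower and 4 higher. Cgas, the cytosolic DNA sensor, was lower (1083 and 324 counts, -1.84, -2.03 to -1.66), with Cd14 (31650 and 16464 counts, -1.04, -1.07 to -1.02) and Tlr5, and the endosomal receptors Tlr8 (3427 and 11315 counts, 1.62, 1.57 to 1.68) and Tlr9 were higher, with Tlr2 (3259 and 7565 counts, 1.11, 1.05 to 1.17) and Nod1. Tlr4, the LPS receptor, had 4854 and 6886 counts (0.40, 0.35 to 0.46). Of 19 NF-kB subunits and inhibitors 3 were higher and none lower, namely Relb (479 and 1202 counts, 1.23, 1.07 to 1.38), Birc3 (934 and 2632 counts, 1.39, 1.28 to 1.5) and Tnfaip2 (6082 and 19922 counts, 1.61, 1.57 to 1.65), and the list's median was 0.41. Rela, the main subunit, had 2385 and 3405 counts (0.41, 0.34 to 0.49) and its inhibitor Nfkbia 2871 and 3417 counts (0.15, 0.08 to 0.22).

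Most genes of antigen presentation through MHC class II were higher. Ciita, the coactivator that controls the class II genes, had 47 and 686 counts (3.77, 3.34 to 4.22). The alpha and beta chain genes followed: H2-Aa had 436 and 2923 counts (2.64, 2.5 to 2.79), H2-Ab1 368 and 3030 counts (2.94, 2.78 to 3.10) and H2-Eb1 191 and 1491 counts (2.86, 2.65 to 3.09), and the invariant chain Cd74 had 1745 and 9746 counts (2.38, 2.31 to 2.45). With the peptide-exchange gene H2-DMb1 these were 6 of 9 measured genes, none was lower, and the median was 2.55. H2-DMa and H2-DMb2, with log2 ratios of 0.28 and 0.25, did not pass the rule. Their summed level was 124 CPM in control and 588 CPM in regorafenib, beside 1419 CPM in M1 control. CCAAT boxes, as in the H2-Aa and H2-Eb1 sequences, stood in 5 of 6 of the class II promoters over the same wider window. Of 19 class I genes 2 were higher and 17 were not called. The higher 2 were the heavy chains H2-K1 (16759 and 40478 counts, 1.17, 1.14 to 1.20) and H2-D1 (30577 and 70761 counts, 1.11, 1.09 to 1.13). The interferon-responsive Psmb8 and Tap1, with log2 ratios of -0.88 and -0.80, were among those not called. The median of this list, -0.011, was 0.002 with total counts as the scaling. Of 14 co-stimulatory and checkpoint genes Cd40 (61 and 11 counts, -2.57, -3.65 to -1.63), Lgals9, Cd276 and Havcr2 were lower and Vsir (VISTA, 6574 and 16391 counts, 1.22, 1.18 to 1.26), Nectin2 and Tnfrsf14 were higher.

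Of 16 FOXO target genes 9 were higher and none lower, with a median of 1.05. Pik3ip1, an inhibitor of PI3K, had 24 and 223 counts (3.11, 2.5 to 3.79), the ubiquitin ligase Fbxo32 (atrogin-1) 49 and 460 counts (3.13, 2.7 to 3.58), and the cyclin G gene Ccng2 620 and 2190 counts (1.72, 1.59 to 1.85). Irs2 and Insr, the insulin signalling genes of the list, were close to the threshold at 0.96 and 0.98. Klf2 had 1680 and 948 counts (-0.93, -1.04 to -0.81) and did not pass the rule. Of 20 autophagy genes 7 were higher and none lower, with a median of 0.68. The initiating kinase Ulk1 had 911 and 3464 counts (1.82, 1.72 to 1.93), and of the ATG8 family that coats the autophagosome Gabarapl1 had 1559 and 4619 counts (1.47, 1.38 to 1.55), Map1lc3b 3050 and 7243 counts (1.15, 1.08 to 1.21) and Map1lc3a 225 and 688 counts (1.51, 1.29 to 1.73). The conjugation enzymes Atg3, Atg5 and Atg7, at -0.07, 0.41 and 0.30, were not called.

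Most lysosomal genes were not called. Of 38 hydrolases and membrane proteins 5 were higher and none lower, beside 8.27% of all tested genes that were higher. Their median was 0.46, and since they are abundant their summed level was 44645 CPM in control and 63142 CPM in regorafenib. The 5 were Ctsf (306 and 1386 counts, 2.08, 1.90 to 2.26), Ctse (536 and 1968 counts, 1.77, 1.64 to 1.92), Psap (161774 and 383015 counts, 1.14, 1.13 to 1.15), the mannosidase Man2b1 and the hexosaminidase Hexa, whose ratio of 1.0, 0.98 to 1.03 lay at the threshold. Cathepsins B and L, Ctsb and Ctsl, had ratios of 0.22 and -0.02. Of the proton pump that acidifies the lysosome few genes differed: of 16 V-ATPase subunits only Atp6v0d2 was called (597 and 2265 counts, 1.82, 1.69 to 1.95), and the median was 0.07. The MiT factors that control lysosomal genes, Tfeb, Mitf and Tfe3, had log2 ratios of 0.73, 0.59 and 0.27. Of all 21 macrophage identity factors 4 were higher: Cebpa (1744 and 4086 counts, 1.13, 1.04 to 1.21), Irf4, Id3 (669 and 2228 counts, 1.63, 1.51 to 1.76) and Spic. Spi1 had a log2 ratio of 0.17.

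Of 23 lipid genes controlled by LXR and PPAR 7 were higher, 3 lower and 13 not called. Apoe, the apolipoprotein that carries cholesterol out of macrophages, had 1184 and 41460 counts (5.03, 4.95 to 5.11), and the exporter Abca1 had 513 and 2520 counts (2.19, 2.06 to 2.33). With Pltp, Ppard, Mylip, the peroxisomal transporter Abcd2 (242 and 1355 counts, 2.38, 2.19 to 2.59) and Pdk4 they were the 7 higher. The 3 lower were Lpl, lipoprotein lipase (90608 and 25672 counts, -1.92, -1.94 to -1.90), the fatty acid receptor Cd36 (8331 and 3659 counts, -1.29, -1.34 to -1.23) and Ch25h, which makes 25-hydroxycholesterol (405 and 34 counts, -3.68, -4.23 to -3.17). Of 15 scavenger receptors 4 were lower, 1 was higher at low counts (Stab2) and 10 were not called. Among the lower Msr1 had 56750 and 17878 counts (-1.77, -1.79 to -1.74), the low-density lipoprotein receptor relative Lrp1 had 88835 and 47029 counts (-1.02, -1.04 to -1.0), and Cd5l had 511 and 75 counts (-2.87, -3.24 to -2.52). Mrc1, the mannose receptor, had 614 and 805 counts (0.29, 0.14 to 0.44) and Stab1 17093 and 20085 (0.13, 0.10 to 0.16), and neither passed the rule.

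Of 20 genes of apoptotic cell clearance and tissue-resident macrophages 6 were higher and 4 lower. The bridging molecule Gas6 (5812 and 12900 counts, 1.05, 1.0 to 1.09) and its receptor Mertk (380 and 1230 counts, 1.59, 1.43 to 1.76) were both higher, with Itgb5, Itgb3, the selenium carrier Selenop (5951 and 45827 counts, 2.84, 2.80 to 2.88) and Gpr34 (4 and 93 counts, 4.44, 3.03 to 6.34). Folr2 (7374 and 2828 counts, -1.48, -1.55 to -1.42), Lrp1 and, at low counts, Timd4 and Tyro3 were lower. Of 12 myeloid C-type lectins Clec4n (Dectin-2, 290 and 2135 counts, 2.78, 2.60 to 2.96), Clec7a (Dectin-1, 273 and 1333 counts, 2.19, 2.0 to 2.38), Clec4a1 and Clec4a3 were higher and none was lower. Of 9 Fc receptor genes 2 were lower, 2 higher and 5 not called. The high-affinity receptor Fcgr1 (3072 and 1184 counts, -1.48, -1.57 to -1.38) and Pilra (268 and 101 counts, -1.51, -1.85 to -1.17) were lower, and the inhibitory Fcgr2b (1362 and 3331 counts, 1.19, 1.10 to 1.28) and the recycling receptor Fcgrt (487 and 3383 counts, 2.69, 2.56 to 2.83) were higher. Of 10 TREM receptor and adaptor genes 3 were lower, 2 higher and 5 not called. Trem1, an amplifier of inflammation, was lower (236 and 23 counts, -3.46, -4.15 to -2.84), with Trem3 and Treml2. The 2 higher genes had log2 ratios of at most 1.19. Trem2 had 16943 and 25428 counts (0.48, 0.46 to 0.51) and was not called. In the Ms4a family 2 of 7 genes were higher, Ms4a4a and Ms4a7 (2190 and 9857 counts, 2.07, 2.0 to 2.14), and the list's median, -0.005, was 0.009 with total counts as the scaling and 0.213 with at least 50 counts.

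The oxidase that makes superoxide was higher in its catalytic subunit, Cybb (gp91phox, 9026 and 38857 counts, 2.0, 1.97 to 2.04), and in the proton channel Hvcn1 (2495 and 5961 counts, 1.16, 1.09 to 1.22). The other 6 of 8 subunits were not called, among them Rac2 at -0.20 and Ncf1 at 0.32. In the eicosanoid pathway the phospholipase that frees arachidonic acid, Pla2g4a (3510 and 664 counts, -2.5, -2.63 to -2.38), and cyclooxygenase-2, Ptgs2 (214 and 69 counts, -1.74, -2.15 to -1.34), were lower, whereas Hpgd, which ends the prostaglandin signal, the receptor Ptger2, Ltc4s and Pla2g7, which hydrolyses platelet-activating factor (2141 and 11881 counts, 2.37, 2.30 to 2.44), were higher. Entpd1 (CD39), which breaks down extracellular ATP, had 415 and 2544 counts (2.51, 2.36 to 2.67), and Adora2b, an adenosine receptor, 238 and 82 counts (-1.64, -2.02 to -1.27). The ATP-gated channel P2rx4 was higher (1861 and 5334 counts, 1.42, 1.34 to 1.49). Of 16 iron genes 4 were higher and none lower, led in counts by the iron exporter ferroportin, Slc40a1 (235 and 1764 counts, 2.81, 2.61 to 3.01), and Hfe, while the storage gene Fth1 had a ratio of 0.02. Of 20 Nrf2 target genes Gstm1 was higher and Nqo1 (1115 and 491 counts, -1.28, -1.44 to -1.13) and Gclc were lower. Of 15 complement genes C3 (1972 and 4451 counts, 1.07, 1.0 to 1.15) and C1s1 were higher and Cd55 and C5ar1 lower. Of all tested genes 8.27% were higher and 10.2% lower, so the few calls among Nrf2 and complement genes are not read as a response of either list.

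The plasminogen system, which breaks down fibrin and matrix, had 5 of 8 genes lower and none higher, with a median of -1.27 (-0.84 with 1 CPM added): the protease Plau (urokinase) had 8531 and 1999 counts (-2.19, -2.27 to -2.12), its receptor Plaur 3022 and 983 counts (-1.72, -1.83 to -1.62), and the plasminogen-binding pair Anxa2 and S100a10 36824 and 16611 counts (-1.25, -1.28 to -1.22) and 9909 and 4344 counts (-1.29, -1.34 to -1.24). Among 36 actin cytoskeleton genes, a list drawn up after values had been seen, 5 were lower and 3 higher, shares close to the 10.2% and 8.27% of all tested genes, with a median of -0.59. The lower ones were abundant: Actb had 153011 and 68643 counts (-1.26, -1.27 to -1.25), Flna, filamin A, 87359 and 36276 counts (-1.37, -1.39 to -1.35), and Actg1 and Tagln2 followed. The 3 higher genes, Acta2, Myl9 and Cnn3, had at most 155 counts in either library. Of 20 integrin and adhesion genes Cd44 was lower (22069 and 11756 counts, -1.01, -1.04 to -0.98) and Itgal (3214 and 9208 counts, 1.42, 1.36 to 1.48), Itgb5 and Itgb3 were higher. With 1 lower and 3 higher of 20, that list too was not far from the shares of all tested genes.

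Metalloproteinases did not share a direction: of 17, 4 were lower and 3 higher, and their median, 0.140, was -0.173 among those with at least 50 counts. Mmp12, macrophage elastase, had 12787 and 5178 counts (-1.41, -1.45 to -1.36) and the sheddase Adam8 69434 and 24697 counts (-1.59, -1.61 to -1.57), both lower, and the membrane-bound Mmp14 was higher (35 and 323 counts, 3.10, 2.60 to 3.65). In the matrix list 5 of 15 were higher and 4 lower. The basement membrane chains Col4a1 (909 and 248 counts, -1.98, -2.18 to -1.77) and Col4a2 (1211 and 268 counts, -2.28, -2.47 to -2.09), whose genes share a promoter region, were lower, with Spp1 and Lgals1. Col1a1 and Col1a2, fibroblast collagens with 37 and 114 and 46 and 188 counts, were higher with Fn1, Sparc and Thbs1, and the fibroblast markers Lum and Dcn were at 0 and 0 and 4 and 9 counts in the same libraries. Gpnmb, one of the 10 largest gains in CPM, had 189952 and 381141 counts (0.90, 0.90 to 0.91) and stayed under 2-fold.

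Genes used to name the polarized states went in both directions. Of 17 measured M1 markers 5 were lower (Cxcl10, Cxcl11, Cd40, Tnf and Fcgr1) and 2 higher (Ciita and Gpr18), and Nos2 had 39 and 40 counts (-0.07, -0.74 to 0.61). Of 14 measured IL-4 markers 3 were lower (Cdh1, Socs1 and Flt1) and 3 higher (Il4ra, Irf4 and Ccl24), and Egr2 and Clec10a, with log2 ratios of 0.47 and -0.41, were not called.

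More genes were called in M0 macrophages than in M1 or M2 macrophages, and more of the M0 calls were also made in M2 than in M1. In M1 macrophages 171 genes were higher (1.27% of the tested genes) and 332 lower (2.47%), and in M2 macrophages 722 were higher (5.23%) and 568 lower (4.11%). Of the 1155 genes higher in M0, 419 were also higher in M2 (36.3% of the M0 calls and 58.0% of the M2 calls), and 21 were also higher in M1 (1.82% and 12.3%), where 22 others were lower. Of the 1423 genes lower in M0, 338 were also lower in M2 (23.8% and 59.5%), and 51 in M1 (3.58% and 15.4%), where 26 others were higher. Calls opposite to those of M0 numbered 1 and 8 in M2. The genes higher in M0 had a median of 0.904 in M2, and those lower in M0 a median of -0.569. In M1 the medians were -0.050 and -0.030. Since these genes were chosen by their M0 ratio, nothing is read from how large the medians are.

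**Figure D3:**
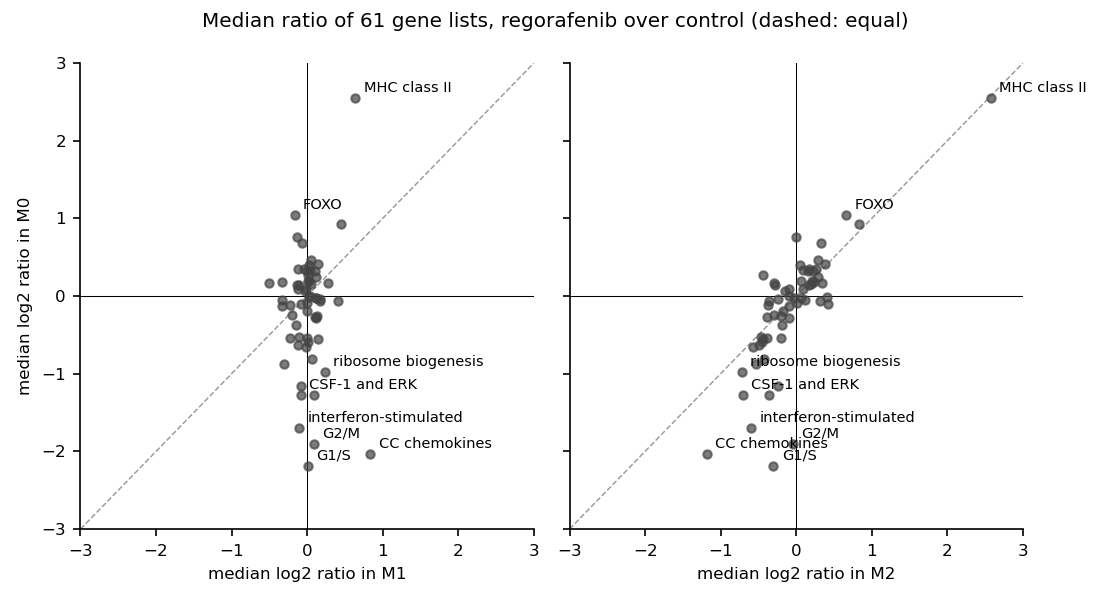
Median log2 ratio of regorafenib over control for 61 gene lists, in M0 (vertical axes) against M1 (left, horizontal axis) and against M2 (right, horizontal axis), 1 point per list. Dashed lines mark equal medians. G1/S genes lie at -2.19 in M0 against 0.01 in M1 and -0.30 in M2, whereas MHC class II genes lie at 2.55 in M0 and 2.58 in M2.

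The division genes differed between the states. Their M0 ratio was below the M2 ratio in 35 of 35 G1/S and 35 of 35 G2/M genes, and the list medians were -0.30 and -0.04 in M2. The controls differed too: the summed G1/S level was 3830 CPM in M0 control, 1802 in M2 control and 331 in M1 control, so the polarized control cultures stood lower without the drug. Mki67 had 1589 and 2417 counts in the M1 libraries and 7534 and 6231 in the M2 libraries, control first, and the log2 ratios were 0.70 and 0.11. Cyclin D1 did not follow this pattern. Ccnd1 had 51132 and 5438 counts in M2, a log2 ratio of -2.85, and was lower there by the same rule, while the M1 libraries held 57 and 76 counts.

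Of 36 interferon-stimulated genes 7 were lower in M2 and 29 were not called, at a median of -0.60. By the interval of the difference, their M0 ratio lay below the M2 ratio in 34 of 36 genes and below the M1 ratio in 36 of 37. It lay above either in 0 genes. Rsad2 had 713 and 198 counts in M2 (log2 ratio -1.46) and 16421 and 8801 in M1 (-0.80), where IFN-γ and LPS had been added. Ribosome biogenesis genes had a median of 0.24 in M1, with the M0 ratio below the M1 ratio in 29 of 30, and a median of -0.72 in M2. Autophagy genes had a median of 0.33 in M2 and -0.07 in M1, and the M0 ratio was above both in 18 of 20 genes each. CC chemokines had medians of 0.83 in M1 and -1.18 in M2. Ccl2 had 19070 and 33467 counts in M1 (0.91) and 30618 and 649 in M2 (-5.18). MHC class II genes reached a like median in M2 (2.58) and 0.64 in M1, and H2-Ab1 had 966 and 4825 counts in M2 (2.71) and 9366 and 12444 in M1 (0.51).

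**Figure D4:**
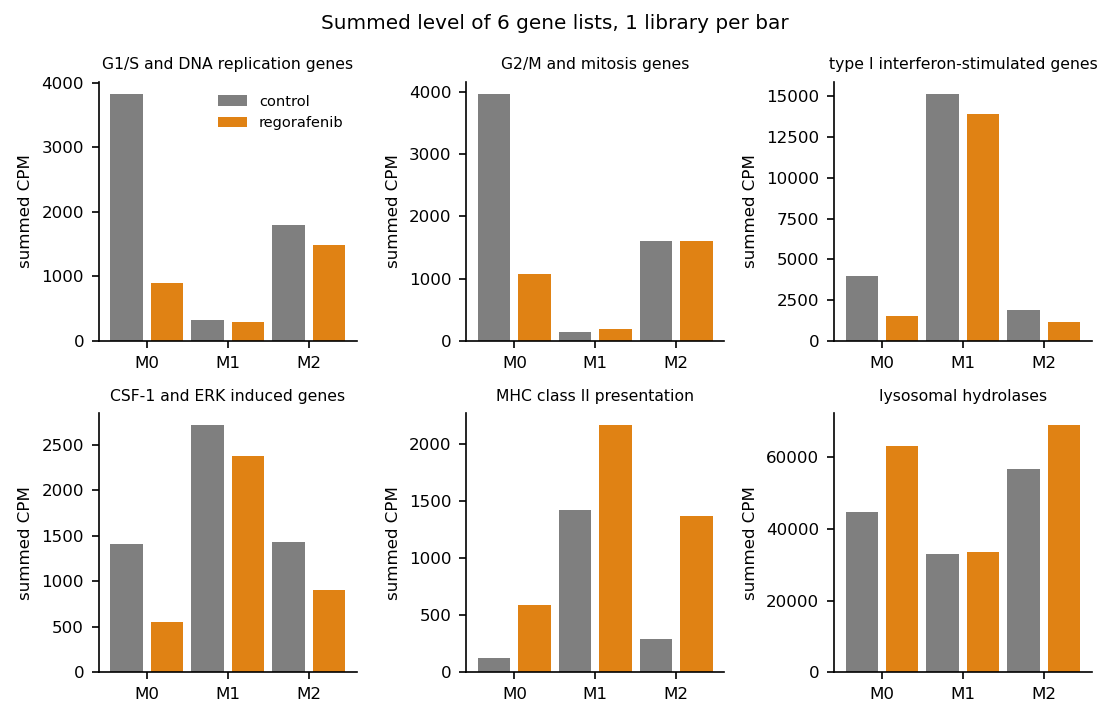
Summed level, in CPM after TMM scaling, of 6 gene lists in the 6 libraries, 1 library per bar (grey control, orange regorafenib). The G1/S and G2/M bars are tallest in M0 control, at 3830 and 3965 CPM, and fall to 902 and 1068 CPM with regorafenib, while in M2 they stand at 1802 and 1485 and at 1602 and 1609 CPM.

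**Figure D5:**
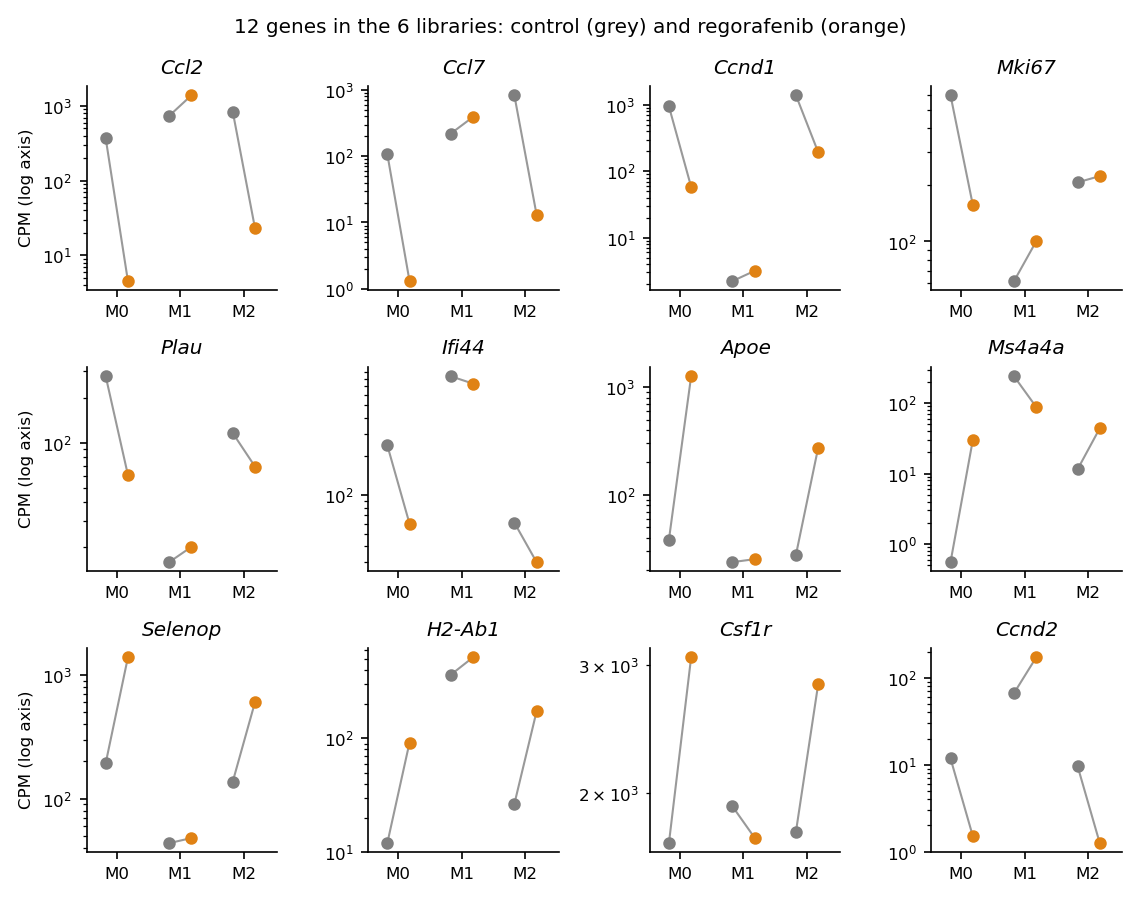
Level of 12 genes, in CPM on log axes, in the control (grey) and regorafenib (orange) library of M0, M1 and M2 macrophages, 1 library per point, lines joining the pair of a state. Ccl2, Ccl7 and Ccnd1 are lower and Apoe, Selenop and H2-Ab1 higher with regorafenib in both M0 and M2, Csf1r stays under 2-fold in both, Mki67 and Ifi44 differ most in M0, and Ms4a4a and Ccnd2 go in opposite directions in M0 and M1.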

How the data were processed

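RNA was sequenced from 6 cultures, 1 per group, on a TruSeq stranded mRNA library with paired reads of 100 bases. Per the labels and the study's methods, the authors trimmed reads with cutadapt 2.4, aligned them with STAR 2.7.2a to GRCm38 and deposited raw counts of reads per Gencode gene. The strand that was counted is not given in the sources used here. Totals were 25359309 to 34898342 counts per library. From the deposited counts, TMM factors (0.820 to 1.12) were computed over the 6 libraries with edgeR 4.0.16 in R 4.3.3, and CPM and log2 ratios followed from them. A count of 0 was replaced by 0.5 in a ratio. Where 1 library held 3 counts or fewer, a bound on the fold was taken against a floor of 3 counts. That bound is given for some of these genes only, and the others have their ratio and interval. Genes had at least 10 counts in 1 of the 2 libraries. The 95% interval of a ratio is the exact conditional binomial interval, which assumes that reads are independent and covers counting error only. A gene was called at 2-fold or more with its interval off 0. With 1 library per group no test across genes was made, and NOISeq, the tool of the study, was not used because it rests on simulated replicates. Intervals of the difference between M0 and another state are normal, with the sum of inverse counts as variance.

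Gene names came from the Gencode annotation: 53229 identifiers matched with their version, 1180 without it, and 37 had no name. Members and gene lists were chosen with earlier results of these data known, and the actin and tubulin lists after values were seen. Genes named by ratio were the 15 highest and 15 lowest among genes that reached 100 counts in either library, without predicted genes, and those named by level were the 10 largest gains and losses in CPM. The others are list members and a fixed set (Ccl2, Ccl7, Ccl12, Ch25h, Klf4, Ccnd1, Msr1, Apoe, Ms4a4a, Tcp11l2, Selenop, Mrc1, Tnf, Il6, H2-Aa, H2-Ab1 and H2-Eb1). Some genes that these rules name are not reported here. Promoters of 20581 genes came from RefSeq (GRCm38.p6), 9948 of them among the genes described. They ran from 250 bases before to 50 bases after the start. Shared 100-base words were counted in the transcripts of the annotation. The alternatives were DESeq2 1.42.0 size factors, total counts, TMM over the M0 libraries alone, 1 CPM added to each level, other count minimums and other fold rules. The scripts were tested on simulated data, with Python 3.11.15, numpy 2.4.6, pandas 2.3.3, scipy 1.17.1 and matplotlib 3.10.9.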

Additional observations from a re-analysis of the deposited data

Results flagged for a closer look

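The results below are genes whose regorafenib ratio passed the 2-fold rule in one direction in M0 macrophages and in the other direction in M1 or M2 macrophages, where either library of each pair reached 100 counts. The difference was not tested, since each group is 1 library, and each value is a single pair of counts, control first. Those that were higher in M0 and lower in M1 and are given here were 7. Clec4n (Dectin-2) had 290 and 2135 counts in M0 and 2111 and 923 in M1, with log2 ratios of 2.78 and -1.09. Hp (haptoglobin) had 16 and 365 counts in M0 and 6489 and 1429 in M1, with log2 ratios of 4.41 and -2.08. Lox (lysyl oxidase) had 42 and 128 counts in M0 and 17484 and 6435 in M1, with log2 ratios of 1.51 and -1.34. March1 (a ubiquitin ligase that takes MHC class II off the surface) had 348 and 1504 counts in M0 and 3773 and 1644 in M1, with log2 ratios of 2.01 and -1.10. Ms4a4a (a tetraspan membrane protein) had 17 and 974 counts in M0 and 6218 and 2123 in M1, with log2 ratios of 5.74 and -1.45. Selenbp1 (a selenium-binding protein) had 310 and 750 counts in M0 and 3160 and 1110 in M1, with log2 ratios of 1.17 and -1.41. Slpi (a secreted protease inhibitor) had 52 and 283 counts in M0 and 2668 and 818 in M1, with log2 ratios of 2.34 and -1.61. In raw counts, the M1 control library stood above both M0 libraries for all of these but Clec4n. After TMM its effective size was smaller than that of M0 regorafenib (25837143 and 32964472 counts), so the exception of Clec4n does not hold in scaled level.

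Those that were lower in M0 and higher in M1 were 4. Adora2b (an adenosine receptor) had 238 and 82 counts in M0 and 2323 and 4530 in M1, with log2 ratios of -1.64 and 1.06. Ccnd2 (a D-type cyclin) had 363 and 50 counts in M0 and 1723 and 4155 in M1, with log2 ratios of -2.96 and 1.37. Psd3 (an exchange factor for ARF6) had 1415 and 446 counts in M0 and 264 and 576 in M1, with log2 ratios of -1.77 and 1.23. Psrc1 (a spindle protein) had 421 and 210 counts in M0 and 38 and 106 in M1, with log2 ratios of -1.11 and 1.58. In M2 macrophages 1 gene was higher where M0 was lower. Neurl1b (a ubiquitin ligase) had 630 and 335 counts in M0 and 270 and 441 in M2, with log2 ratios of -1.01 and 1.09.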

How the results depend on the processing

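By the 2-fold rule 1155 genes were higher and 1423 lower, and the share of calls that were higher, 44.8%, stayed between 43.7% and 45.9% with DESeq2 size factors, total counts and TMM over M0 alone. The counts moved by over 1.5 times with the fold rule or the added count: 2204 higher and 2510 lower at 1.5-fold, 313 and 418 at 4-fold, 525 and 933 where the whole interval had to lie beyond 2-fold, and 553 and 942 with 1 CPM added to each level. With at least 50 counts they were 773 and 1102. No called ratio of a named gene or list member reversed under the 4 alternatives run for single genes (TMM over M0 alone, DESeq2 size factors, total counts and 1 CPM added). Of the 1070 ratios 5 took the other sign with DESeq2 size factors and 8 with total counts, all at 0.012 or less in size and not called. The calls lost were 51 with 1 CPM added, 3 with DESeq2 size factors and 4 with total counts. Counts of calls within the lists moved by over 1.5 times in 21 cases with 1 CPM added, 11 with at least 50 counts, 3 with total counts and 1 with DESeq2 size factors, each from a count of 1 to 4 genes. With both of the first 2 settings these were the higher genes among CC chemokines, CXC chemokines and scavenger receptors (1 to 0), M1 markers (2 to 1), iron genes (4 to 2) and actin genes (3 to 1), and the lower genes among growth factors (2 to 1), apoptotic cell clearance genes (4 to 2), TREM genes (3 to 1), dendritic cell markers (1 to 0) and fibroblast and endothelial markers (2 to 1). With 1 CPM added alone they were the higher genes among cytokines and the Bcl-2 family (2 to 1), TREM genes (2 to 0), glycolysis genes and T, NK and B cell markers (1 to 0), and the lower genes among p38 and CREB, complement and Nrf2 genes (2 to 1), IL-4 markers (3 to 1) and tRNA synthetases (1 to 0). With total counts they were the lower genes among Nrf2 genes (2 to 1), tRNA synthetases and integrins (1 to 0), and with DESeq2 size factors the lower dendritic cell markers (1 to 2). Of the list medians those of MHC class I genes and the Ms4a family changed sign with total counts, and those of the Ms4a family and metalloproteinases with at least 50 counts. No paired analysis was possible because each group is 1 library, and for the same reason no replicate could be left out. Low counts limit the genes under about 100 counts, where intervals are wide, and the spread between cultures is unknown. The exposure time of the M0 cultures is not stated in the sources used here, so it may differ from that of the polarized ones.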

Other observations

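Gene types outside the protein-coding genes had their own directions in M0 macrophages. Of the 309 measured lincRNA genes 78 (25.2%) were higher and 31 lower, with a median log2 ratio of 0.534, and of the 281 antisense genes 25.3% were higher and 7.83% lower, with a median of 0.550. The 58 long noncoding RNAs that start at a shared promoter in the opposite direction had 44.8% higher and 5.17% lower, with a median of 0.992. Of the 11894 protein-coding genes 7.12% were higher and 9.97% lower, with a median of -0.003. The 759 processed pseudogenes went the other way, with 2.90% higher, 15.7% lower and a median of -0.294. The lincRNA median was -0.151 in M1 and 0.229 in M2 macrophages. All noncoding genes together took 0.409% of the control library and 0.455% of the regorafenib library. Many of these genes have low counts, antisense reads depend on the strand that was counted, and pseudogenes share sequence with their parent genes. The part of these in the medians was not tested.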
